A study of Mus musculus with 2 samples.

Results

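The genes for ubiquitin-conjugating enzymes (symbols starting with Ube2) and for ubiquitin-specific proteases (symbols starting with Usp and a digit) were examined for binding of Sap130 in the embryonic mouse heart. The RefSeq table of build GRCm38.p6 gave 37 Ube2 and 51 Usp protein-coding genes, 88 of 21779 in all, once 5 Usp17l genes were left out. A gene was called marked when a Sap130 peak summit lay inside it or within 1000 bp of either of its boundaries. The summits came from chromatin immunoprecipitation sequencing (ChIP-seq) of hearts of C57BL/6 embryos at E12.5, with 1 library from a Sap130 antibody and 1 library of input DNA that received no antibody. The study set out to find what Sap130 binds in the heart, and both libraries carry the same stage, tissue and strain, with no genetic change or treatment named. Sap130 is a subunit of the Sin3 complex, which removes acetyl groups from histones.

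Ubiquitin is a small protein that cells attach to other proteins, often to send them to the proteasome. An activating enzyme (E1) loads ubiquitin onto a conjugating enzyme (E2), and a ligase (E3) brings the E2 to its target. Deubiquitinases, of which the ubiquitin-specific proteases are the largest class, cut ubiquitin off again. Related systems attach SUMO, NEDD8, UFM1 or ISG15 with E1 and E2 enzymes of their own. In the heart, protein turnover by these enzymes is known for its part in keeping the contractile apparatus in repair.

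The symbols do not follow function in every case. Ube2v1 and Ube2v2 encode partners of the E2 Ube2n that lack its catalytic cysteine, and Ube2cbp encodes a ligase that binds Ube2c. Usp6nl encodes a protein that switches off Rab proteins, Usp39 a splicing protein without protease activity, and Usp50, Usp53 and Usp54 have been regarded as inactive relatives. All were kept as members by the symbol rule.

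Sap130 summits marked most members of both families. They were at 33 of 37 Ube2 genes (89.2%, Wilson 95% interval 75.3 to 95.7) and 47 of 51 Usp genes (92.2%, 81.5 to 96.9), against 55.0% of all 21779 protein-coding genes. The difference, Usp minus Ube2, was 2.97 percentage points (Newcombe 95% interval -9.53 to 17.7), so the families could not be separated by this count. Among 78 F-box genes, which encode the target-binding parts of one class of ligases, 74.4% were marked, and among 60 genes of the proteasome and COP9 signalosome 91.7%. With 1 ChIP library there was no replicate, so no test was made, and intervals describe counting error over genes only. The deposited list holds no read counts, so the depth behind each summit is unknown. Members were longer than other genes, with a median of 30405 bp for Ube2, 52114 bp for Usp and 17217 bp for all genes, and a longer gene has more room for a summit. Among genes longer than 60000 bp, 73.5% of all genes were marked, 7 of 8 Ube2 genes and 21 of 22 Usp genes. Among those of 10000 bp or less the values were 35.8%, 4 of 7 and 3 of 3. The part of gene length in the family shares was not tested.

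**Figure D1:**
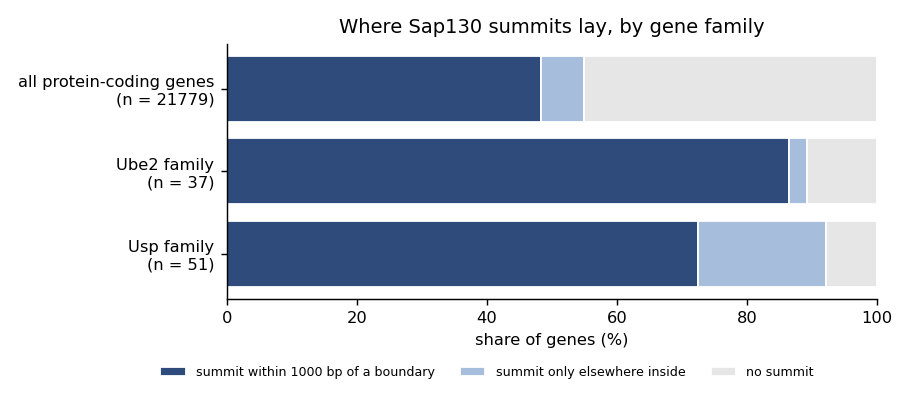
Share of genes, in percent, with a Sap130 summit within 1000 bp of a gene boundary, only elsewhere inside the gene, or with none, for all 21779 protein-coding genes, 37 Ube2 genes and 51 Usp genes. The unmarked share is small in both families. The share with summits only farther than 1000 bp inside a boundary is 19.6% for Usp against 2.70% for Ube2.

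More Usp than Ube2 genes had summits only farther than 1000 bp inside their boundaries. The Usp genes were also longer, with a median of 52114 bp against 30405 bp, and the part of length here was not tested. A summit was within 1000 bp of a boundary at 32 Ube2 genes (86.5%, Wilson interval 72.0 to 94.1) and 37 Usp genes (72.5%, 59.1 to 82.9), against 48.4% of all genes. The difference, Usp minus Ube2, was -13.9 points (Newcombe interval -29.4 to 3.84), which includes 0. Summits only farther inside were found for 1 Ube2 gene (2.70%) and 10 Usp genes (19.6%), against 6.61% of all genes, a difference of 16.9 points (Newcombe interval 2.85 to 29.9). The 10 Usp genes with summits only farther inside were Usp4, Usp7, Usp13, Usp34, Usp37, Usp42, Usp44, Usp45, Usp49 and Usp54. RefSeq transcript starts were at hand for 8 of these 10 Usp genes, and 6 of the 8 had a summit within 1000 bp of such a start. The start of Usp7, whose product stabilises p53 and its ligase Mdm2, lay 18725 bp inside the gene's annotated boundary, with a summit 348 bp downstream of it. The corresponding summits lay 180 bp downstream of the start for Usp4, 283 bp for Usp34, 172 bp for Usp37, 121 bp for Usp13 and 189 bp for Usp45. Over all genes, 952 of the 1174 with summits only farther inside and a listed start (81.1%) had one this close to a start. The exceptions were Usp54, whose highest summit was 22419 bp upstream of the listed start, and Usp49, with a summit 41692 bp downstream. Measured from transcript starts, the families had nearly the same share, 26 of 30 Ube2 genes (86.7%) and 34 of 39 Usp genes (87.2%), against 52.2% of the 17492 genes with a start in the table.

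The sequence before some of these starts is shown for members that carry the results: Ube2c, Ube2g1 and Usp36, of high score with the start at the gene's end, Usp4 and Usp7, with starts deeper inside, and Ube2d2b and Usp26, which had no summit. Each is the 250 bases before the start, 5′ to 3′ on the gene's strand, from RefSeq, build GRCm38.p6. Capitals mark matches to the motifs described below.
Ube2c, chr2:164769679-164769928, plus strand: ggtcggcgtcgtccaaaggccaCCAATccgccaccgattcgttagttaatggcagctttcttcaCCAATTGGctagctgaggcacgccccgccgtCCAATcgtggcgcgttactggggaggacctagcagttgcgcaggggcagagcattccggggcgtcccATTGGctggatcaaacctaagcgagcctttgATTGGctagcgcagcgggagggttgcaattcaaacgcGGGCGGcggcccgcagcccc
Ube2g1, chr11:72607011-72607260, plus strand: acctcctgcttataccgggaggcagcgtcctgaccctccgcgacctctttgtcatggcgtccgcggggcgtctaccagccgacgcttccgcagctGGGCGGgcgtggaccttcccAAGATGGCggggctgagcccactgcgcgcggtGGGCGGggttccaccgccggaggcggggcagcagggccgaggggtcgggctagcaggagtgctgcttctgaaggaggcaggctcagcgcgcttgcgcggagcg
Usp36, chr11:118290245-118290494, minus strand: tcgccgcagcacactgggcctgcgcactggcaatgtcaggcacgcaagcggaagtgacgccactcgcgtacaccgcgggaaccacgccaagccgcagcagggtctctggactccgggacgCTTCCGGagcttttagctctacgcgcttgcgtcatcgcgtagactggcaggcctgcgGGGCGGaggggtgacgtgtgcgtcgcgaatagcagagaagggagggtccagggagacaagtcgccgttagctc
Usp4, chr9:108347581-108347830, plus strand: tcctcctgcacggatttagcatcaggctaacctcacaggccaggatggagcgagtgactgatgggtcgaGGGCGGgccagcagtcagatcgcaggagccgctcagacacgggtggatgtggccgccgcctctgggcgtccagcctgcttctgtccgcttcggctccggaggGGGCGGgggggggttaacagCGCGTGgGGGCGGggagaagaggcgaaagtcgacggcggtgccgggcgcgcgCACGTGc
Usp7, chr16:8738343-8738592, minus strand: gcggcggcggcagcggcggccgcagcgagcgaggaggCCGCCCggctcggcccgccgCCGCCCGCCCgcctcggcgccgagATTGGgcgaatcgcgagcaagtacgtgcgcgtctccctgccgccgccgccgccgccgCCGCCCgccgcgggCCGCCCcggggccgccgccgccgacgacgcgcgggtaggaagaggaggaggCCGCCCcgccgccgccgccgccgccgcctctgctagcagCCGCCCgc
Ube2d2b, chr5:107829912-107830161, plus strand: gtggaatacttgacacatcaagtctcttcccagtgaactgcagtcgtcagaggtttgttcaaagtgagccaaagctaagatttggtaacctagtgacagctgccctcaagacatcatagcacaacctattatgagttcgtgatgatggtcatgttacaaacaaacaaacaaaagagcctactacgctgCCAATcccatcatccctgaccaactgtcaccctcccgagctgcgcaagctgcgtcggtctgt
Usp26, chrX:51801234-51801483, minus strand: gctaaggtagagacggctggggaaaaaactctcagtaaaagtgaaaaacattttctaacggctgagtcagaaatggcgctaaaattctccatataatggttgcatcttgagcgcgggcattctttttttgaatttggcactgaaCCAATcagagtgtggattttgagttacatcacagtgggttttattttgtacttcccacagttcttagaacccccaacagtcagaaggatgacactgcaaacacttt

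Most marked members with a listed start had CpG-rich sequence before it, and the unmarked members did not. Where a gene had several starts, the one nearest its highest summit was used, or nearest any summit if unmarked. The windows were thus chosen with the same summits that define marking, and the part of that choice was not tested. CpG, a C followed by a G, is rare in most of the mouse genome and frequent at the promoters of broadly expressed genes. A start was listed for 69 members, 30 Ube2 and 39 Usp genes. The 250 bases held a median of 25.5 CpG for the 26 marked Ube2 genes and 24.5 for the 36 marked Usp genes. Over all genes the median was 18 for 9646 marked genes and 3 for 7840 unmarked ones. The 7 unmarked members with a listed start had between 1 and 8, and their median was 5. Usp7 held 55 CpG, the most of any member, followed by Ube2e2 with 48 and Usp25 with 47. Among marked members, 5 Usp genes had fewer than 9: Usp54 with 4, Usp11 and Usp51 with 5, Usp10 with 6 and Usp40 with 8. Ube2e2, with its many CpG, had a score of 12.52 only, so within the members a high CpG count did not always go with a high score.

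**Figure D2:**
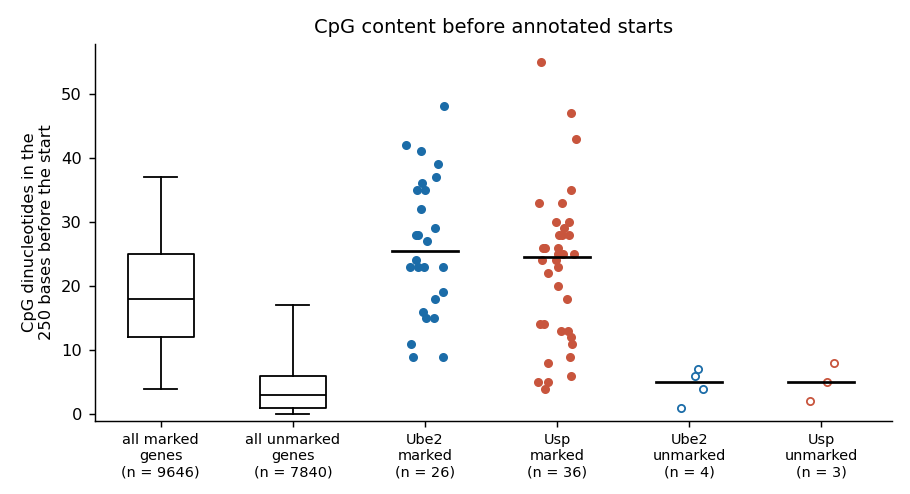
CpG dinucleotides in the 250 bases before the annotated start, for all marked and unmarked protein-coding genes (boxes: quartiles and median, whiskers: 5th to 95th percentile) and for single members (points, with the median as a bar). Marked members of both families lie around medians of 25.5 and 24.5, and unmarked members lie between 1 and 8.

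Of 8 short motifs searched on both strands, the GC box was the most frequent in members. The GC box, bound by Sp factors, was searched as GGGCGG and found before the start of 46 of 62 marked members (74.2%), against 64.7% of all marked genes and 43.9% of all genes in the table. It was in none of the 7 unmarked members, where 18.4% of all unmarked genes held it. The 6 letters CACGCG were found in 11 of 36 marked Usp genes (30.6%) and 4 of 26 marked Ube2 genes (15.4%), against 16.8% of all marked genes and 10.4% of all genes. The CCAAT box, bound by NF-Y and searched as CCAAT, was in 11 marked members (17.7%) and in 5 of the 7 unmarked ones, against 35.9% of all genes. Ube2c held 6 matches to it, 2 of them overlapping each other, a number reached by 12 of all genes in the table (0.0686%). Ube2t, the E2 of the Fanconi anaemia repair pathway, held 3, and 3.57% of all genes held 3 or more. The E-box CACGTG, bound by Myc, Max and Mxd proteins, was in 6 marked members (9.68%) against 9.16% of all marked genes. It occurred 3 times in Ube2b, 2 times in Ube2q1 and once each in Usp4, Usp6nl, Usp16 and Usp31. The ETS motif CCGGAAG was in 11 marked members (17.7%, all marked genes 15.2%), the YY1 motif AAGATGGC in 4 (6.45%, 2.13%) and the CRE TGACGTCA in Ube2h alone (1.61%, 2.98%). The NRF1 palindrome was in none (all marked genes 1.87%). Among the members no match to 1 motif overlapped a match to another. These are letters in a window, not measured binding sites. Median GC content of the windows was 69.2% for marked members and 62.0% for all marked genes. It was 46.0% for unmarked members and 47.6% for all unmarked genes. The part of base composition in the motif shares was not tested.

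Summits lay mostly a short way downstream of the start. For 59 members the highest summit was within 1000 bp of a listed start, and for 46 of them (78.0%) it was downstream, against 82.8% over all genes. The median position was 190 bp downstream for Ube2 and 196 bp for Usp, against 180 bp over all 8848 genes with such a summit. The highest summit was upstream of the start for 7 of 25 Ube2 and 6 of 34 Usp genes. It lay 69 bp upstream for Ube2f, 300 bp for Ube2q1, 520 bp for Usp20 and 582 bp for Usp37.

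**Figure D3:**
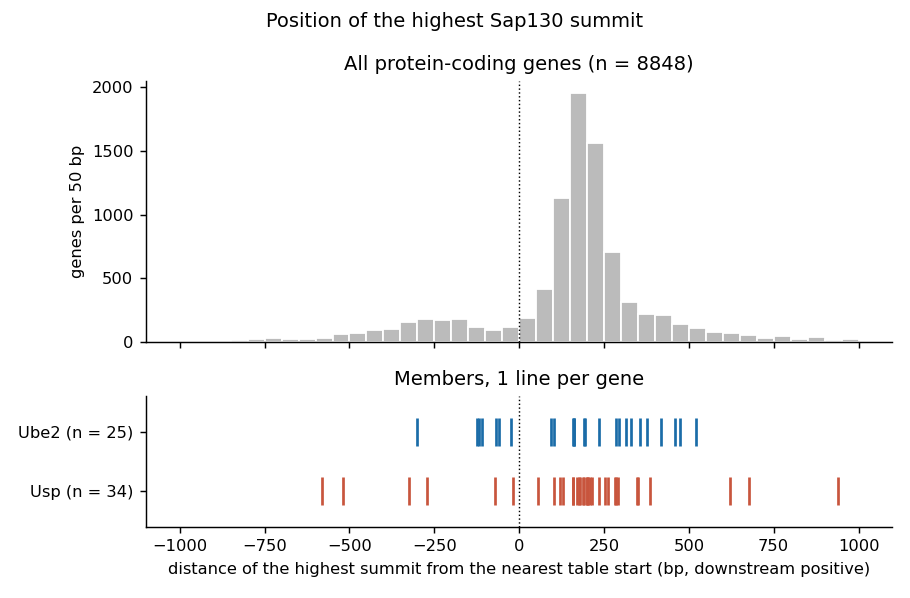
Distance in bp from the annotated start to the highest Sap130 summit of each gene, downstream positive: a histogram of 8848 protein-coding genes in bins of 50 bp, and 1 line per gene for 25 Ube2 and 34 Usp genes. Members gather around the same place as other genes, with medians of 190 and 196 bp.

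Some members carried summits on both sides of the start. This was so for 4 of 26 Ube2 genes (15.4%) and 9 of 34 Usp genes (26.5%) with a summit near a start, against 16.03% over all genes. Usp38 had a summit of score 130.9 at 170 bp downstream and one of 19.0 at 422 bp upstream. Ube2q1 had scores of 76.8 at 390 bp downstream and 85.4 at 300 bp upstream. The downstream summit scored higher in 8 of the 9 Usp genes and 2 of the 4 Ube2 genes, and in 70.0% of such genes overall. The exceptions were Usp37, Ube2q1 and Ube2r2. In all, 22 marked Ube2 genes and 27 marked Usp genes had a single summit, and Ube2h, an E2 that works with the CTLH ligase, had the most, 4.

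Scores described the strength of each call within this list. The score is the authors' deposited −log10 value, of either p or q. It becomes larger with depth as well as enrichment and served only to rank summits against each other. Taking the highest summit of each gene, the median was 60.4 for Ube2 (binomial 95% interval of the median 44.4 to 77.5) and 66.6 for Usp (54.4 to 88.4), against 48.9 for all marked genes, whose quartiles were 23.9 and 78.6. Of the marked genes, 10 of 33 Ube2 (30.3%) and 19 of 47 Usp (40.4%) lay above that upper quartile, and 3 and 5 below the lower one. A score of 100 or more was reached by 4 Ube2 and 8 Usp genes, 12 of 80 marked members, against 13.7% of all marked genes. The intervals of the family medians overlapped.

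**Figure D4:**
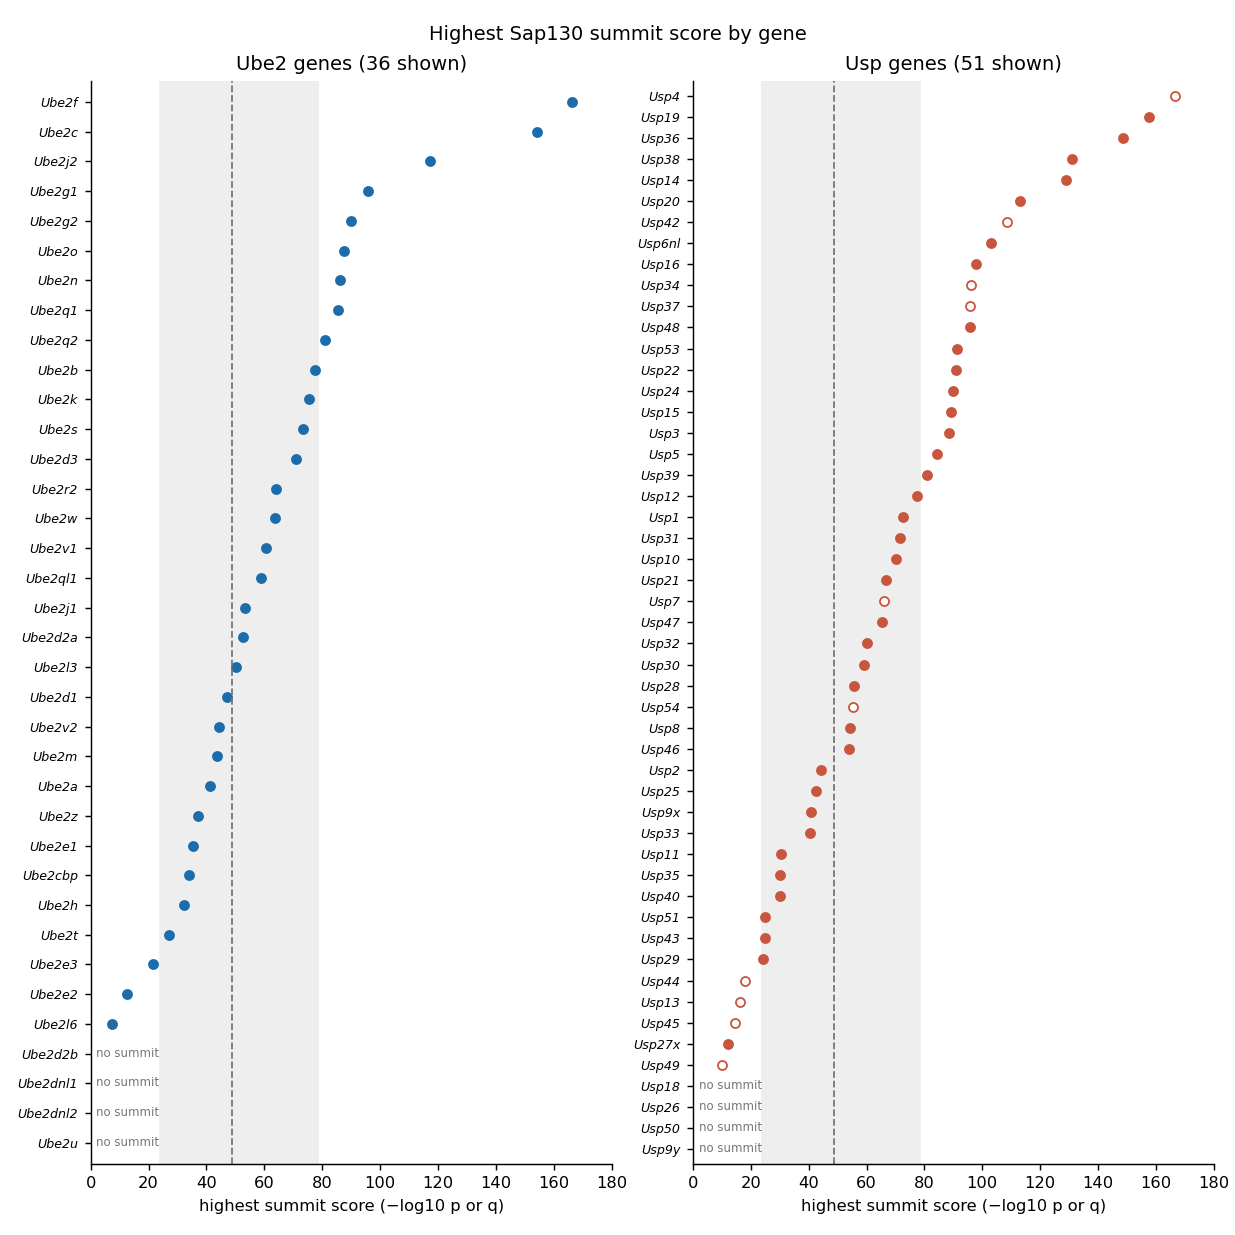
Highest Sap130 summit score (−log10 of p or q) of 36 Ube2 and 51 Usp genes, in order. Filled points have a summit within 1000 bp of a gene boundary, open points only deeper inside. The dashed line and grey band are the median, 48.9, and quartiles of all marked genes, and the 4 genes without a summit in each family stand at the foot.

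Ube2f and Ube2l6, which encode E2s for NEDD8 and ISG15, had the highest and the lowest score of the marked Ube2 genes. Ube2f, an E2 for NEDD8, had the highest score of the family, 166.4, from a summit at chr1:91250497, 807 bp inside the gene. Ube2m, the other NEDD8 E2, had 43.6, below the family median of 60.4. Ube2l6, the E2 for ISG15, had 7.21, the lowest score of any marked member. The gene of the ISG15 protease, Usp18, had no summit, the nearest lying 61841 bp away.

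E1 genes of ubiquitin-like proteins are set beside them here, a comparison put together after the values were seen. Uba2 and Sae1, the 2 subunits of the SUMO E1, had 103.5 and 93.9. Nae1 and Uba3, of the NEDD8 E1, had 74.6 and 32.0, the former from a summit shared with Car7. Uba7, the E1 for ISG15, had none. The 3 ISG15 enzyme genes named here, Ube2l6, Usp18 and Uba7, had either no summit or a weak one, where 55.0% of all protein-coding genes were marked. ISG15 and its enzymes are known to be induced by interferon, and any link of that to the summits was not tested.

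Both E2 genes of the anaphase-promoting complex, the ligase that ends mitosis, were marked, against 89.2% of the Ube2 family and 55.0% of all genes. Ube2c, which starts ubiquitin chains for it, had 154.1 from a summit at chr2:164770033, 104 bp downstream of the start whose sequence is shown above. Ube2s, which lengthens the chains, had 73.3. Only 1.79% of all summits scored as high as that of Ube2c or higher.

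The E2 genes for degradation at the endoplasmic reticulum were marked in 4 of 4 cases. The share was 89.2% for the whole Ube2 family and 55.0% for all protein-coding genes. Ube2j2 had 117.1, Ube2g1 95.7, Ube2g2 90.0 and Ube2j1 53.2. Each had a single summit, within 1000 bp of a boundary and shared with no other protein-coding gene.

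The marked Ube2d and Ube2e genes, of E2s that work with many ligases, had scores from 12.52 to 70.9. All lay below the upper quartile of all marked genes, 78.6, and Ube2d3 lay above the family median of 60.4. Ube2d1, Ube2d2a and Ube2d3 had 47.2, 52.5 and 70.9. For Ube2d3 this summit lay 1223 bp inside the gene and 329 bp downstream of a listed start. The Ube2d3 summit at the boundary, 320 bp upstream of a listed start, had 14.2. Their relative Ube2d2b, a gene of 1616 bp, had no summit within 37119 bp. The Ube2e genes had lower scores, with 35.3 for Ube2e1, 21.5 for Ube2e3 and 12.52 for Ube2e2.

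The K63-chain E2 Ube2n had 86.1, and its partners Ube2v1 and Ube2v2 had 60.4 and 44.4. Of the E2 genes for histones and DNA repair, Ube2b had 77.5, its X-linked twin Ube2a 41.1 and Ube2t 27.2. The Ube2b summit lay outside the gene and was shared with Cdkl3. Another of 63.6, also shared with Cdkl3, lay 267 bp downstream of a start inside Ube2b.

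The remaining marked Ube2 genes had scores between 32.3 and 87.7. Ube2o, of a large enzyme that joins E2 and E3 activity, had 87.7. Ube2q1 and Ube2q2 had 85.4 and 80.9. Ube2k had 75.5 from a summit shared with Smim14, Ube2r2, a relative of the SCF ligase's E2 Cdc34, had 64.2, and Ube2w, which adds ubiquitin to protein N-termini, had 63.8. Ube2ql1 had 59.0, Ube2l3, an E2 of parkin, 50.1, Ube2z, which is loaded by Uba6, 37.0, Ube2cbp 34.1 and Ube2h 32.3.

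Among the Usp genes the highest score was that of Usp4, 166.7, from a summit at chr9:108348011, 1447 bp inside the gene and 180 bp downstream of the start whose sequence is shown above. Its product has paralogs with the same DUSP and ubiquitin-like domains, Usp15 and Usp11, which had 89.2 and 30.4. Usp36, of a nucleolar deubiquitinase, had 148.6 and its relative Usp42 108.7. The Usp42 summit was 21711 bp inside the gene, and no start was listed for it. Usp38 had 130.9 and its relative Usp35 30.0, the latter shared with Kctd21.

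The 13 genes of deubiquitinases that act on histones or in DNA repair were all marked, against 92.2% of the Usp family and 55.0% of all genes. Their median score was 66.6, that of the whole Usp family. The highest was 97.8 and none reached 100, as 13.7% of all marked genes did. With 13 genes, that gap is too small a count to judge. Usp16 and Usp3, which remove ubiquitin from histone H2A, had 97.8 and 88.4. Usp22, of the SAGA coactivator, had 90.8, while its X-linked relatives Usp51 and Usp27x had 25.1 and 12.2. Usp48 had 95.6, Usp1, of the Fanconi pathway, 72.7, Usp10, a regulator of p53, 70.2, Usp7 65.9 and Usp28, which stabilises Myc, 55.7. Usp21 had 66.6 from a summit shared with Ufc1, the E2 for UFM1, a single summit in reach of a conjugating and a deubiquitinating gene. Usp44, of the spindle checkpoint, and Usp49, which acts on histone H2B, had 18.1 and 10.2, both from summits over 10000 bp inside, that of Usp49 shared with Gm20517. For Usp49 stronger summits of 48.99 and 53.2 lay 1148 and 1319 bp outside the gene, just beyond the window.

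Of the genes of deubiquitinases that need the cofactor Wdr48, Usp12 had 77.5, Usp1 72.7 and Usp46 54.0. All lay between the quartiles of the marked Usp genes, 40.7 and 93.4. Of those acting on free ubiquitin chains or at the proteasome, Usp14, a subunit associated with the proteasome, had 129.0, Usp5 84.3 and its paralog Usp13 16.45. The Usp5 summit was 861 bp outside the gene and shared with Cdca3. The summits inside the gene had 28.0 and 17.2 and were also shared with Cdca3.

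The genes of membrane-bound and endosomal deubiquitinases were marked in 5 of 5 cases, against 92.2% of the Usp family and 55.0% of all genes. Usp19, anchored in the endoplasmic reticulum, had 157.7 from a summit shared with Lamb2. Usp20 had 112.9, from a summit outside the gene shared with BC005624, and its paralog Usp33 had 40.5. Usp30, on mitochondria, had 59.0 and Usp8, which recycles receptors at endosomes, 54.4.

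Of the members not counted among the active deubiquitinases, Usp6nl had 102.8, Usp53 91.2, Usp39 80.9 and Usp54 55.5. Usp50 had none. Usp29, which shares an imprinted promoter region with Peg3, had 24.2 from a summit shared with that gene, 300 bp outside Usp29.

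The other marked Usp genes ran from 96.1 to 14.5. Usp34, which acts in Wnt signalling, had 96.1, Usp37, which stabilises cyclin A, 95.8, shared with Cnot9, and Usp24 90.0. Usp31 had 71.7, Usp47 65.4, Usp32 60.2, shared with 1700125H20Rik, and Usp2, linked to the circadian clock, 44.2. Usp25 had 42.6, Usp9x 40.9, Usp40 30.0, Usp43 25.01 and Usp45 14.5. The summit of Usp2 lay 192 bp downstream of a start inside the gene.

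Scores of paralogs are set side by side for 18 pairs of close relatives, 6 of Ube2 and 12 of Usp genes. Both genes were marked in 17 pairs. Counted per gene rather than per pair, 90.9% of all members and 55.0% of all protein-coding genes were marked. The pairs were chosen with earlier results known, so the count of pairs depends on that choice. Left out were, among others, Ube2dnl1 with Ube2dnl2, both unmarked, and Ube2d2a with Ube2d2b, of which only Ube2d2a was marked. Some pairs had close scores, as 95.7 for Ube2g1 and 90.0 for Ube2g2, or 85.4 for Ube2q1 and 80.9 for Ube2q2. In others they lay far apart in the list, as 50.1 for Ube2l3 and 7.21 for Ube2l6, 97.8 for Usp16 and 14.5 for Usp45, 84.3 for Usp5 and 16.45 for Usp13, or 130.9 for Usp38 and 30.0 for Usp35. Whether paralogs were more or less alike than other genes was not tested. Usp9x was marked and its Y-linked copy Usp9y was not, and the list holds 0 summits on the Y chromosome.

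The 8 unmarked members were Ube2d2b, Ube2dnl1, Ube2dnl2 and Ube2u of one family and Usp9y, Usp18, Usp26 and Usp50 of the other. The nearest summit was 226959 bp from Ube2u 2304010 bp from Ube2dnl1 and 2306580 bp from Ube2dnl2. It was 71233 bp from Usp26, a testis gene on the X chromosome, and 53519 bp from Usp50. None of the 7 with a measurable distance had a summit close outside the window, so the limit of 1000 bp did not decide their class. On the X chromosome 5 of 8 members were marked, with scores from 12.2 to 41.1, against 33.9% of 963 X-linked genes, whose median score was 19.6.

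Some summits were in reach of more than 1 gene. The highest summit was also in reach of another protein-coding gene for 2 of 33 marked Ube2 genes (6.06%) and 9 of 47 marked Usp genes (19.1%), against 25.4% of all marked genes. Those of Ube2 were Ube2b and Ube2k. Such a summit cannot be given to 1 of the genes. Near the limit of 1000 bp from a boundary, Usp51 was inside it at 939 bp with 25.1, and Usp47 had an additional summit of 5.59 just beyond it, at 1015 bp inside the gene.

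The other genes of ubiquitin conjugation and removal were marked about as often as the members. Summits were at 53 of 56 such genes (94.6%), with a median score of 66.5. Of all protein-coding genes 55.0% were marked, with a median score of 48.9. The list was chosen with earlier results of these data known. All 4 ubiquitin genes were marked, among them Ubb with 81.7 and Rps27a with 42.6, the latter shared with Clhc1. Of the E1 genes 8 of 9 were marked, with 36.2 for Uba1, the main E1 for ubiquitin, and 50.5 for Uba6. All 5 E2 genes without the Ube2 name were marked, among them Birc6 with 82.7 and Cdc34 with 72.3. Of the deubiquitinase genes without a Usp number 29 of 31 were marked, with 139.7 for Otud4, 121.4 for Otulin, which cuts linear chains, 98.6 for Psmd14 of the proteasome and 73.3 for Bap1, which acts on histone H2A. The unmarked ones were Pan2 and Otud6a. All 7 genes of Usp cofactors were marked, with 118.2 for Sgf29 of SAGA and 112.6 for Wdr48.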

How the data were processed

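One Sap130 ChIP-seq library and 1 input library of E12.5 mouse hearts were made, per the labels' protocols, with 2 µg of antibody for the former. Per the submitters' processing notes, reads were processed with the aligner Bowtie (1.1.2) and the peak caller MACS2 (2.1.0.20140616) on build GRCm38 (mm10). For settings, duplicates and threshold, nothing is given in the sources used here. The authors deposited 14886 summits of 1 bp, each with a −log10 p-value or q-value (2.10 to 428), which of the 2 is not stated. The depth is unknown. Of these, 14881 lay on nuclear chromosomes and were used.

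Genes came from RefSeq GRCm38.p6. Of 21900 protein-coding genes, 21779 on named nuclear chromosomes were kept, leaving out any whose first base lies below 3 Mb, except on Y. Starts and sequence came from RefSeq windows of 300 bases, listed for 69 members. Where a gene had several starts, the one nearest its highest summit was taken, or nearest any summit if the gene was unmarked. Shares carry Wilson, differences Newcombe and medians binomial order-statistic 95% intervals. No test was made. The assignment of summits to genes was checked on simulated summits. Members are given by role. A few genes are counted but not reported here by name, in the text or the plot of scores. The members, gene lists and paralog pairs were chosen with earlier results of these data known. Alternatives were windows of 500 and 2500 bp, boundary summits only, higher-scoring summits, unshared summits and merging within 500 bp. A transcript-start rule and leaving out members not counted as E2s or active deubiquitinases were added after seeing the data. Of the pathway list, Cdc34b was not matched. Software was pandas 2.3.3, matplotlib 3.10.9, scipy 1.17.1 and numpy 2.4.6 under Python 3.11.15.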

Additional observations from a re-analysis of the deposited data

How the results depend on the processing

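No paired analysis was possible because the groups hold 1 sample each. The shares of marked genes stayed above those of all genes at every setting, but the order of the 2 families did not hold. The difference, Usp minus Ube2, was 2.97 points and turned to -13.9 points with boundary summits only (Usp 72.5%), to -5.09 with the 7442 summits at or above the median score (Usp 70.6%) and to -7.31 when summits that several genes share were dropped (Usp 76.5%). With the highest 3728 summits the shares fell, by construction, to 37.8% for Ube2 and 51.0% for Usp, against 19.5% of all genes, and the median scores became 86.9 and 91.0, against 91.5. The intervals of these differences all included 0. Of 45 values under the alternatives, 35 stayed within the interval of the main value, 7 moved out of it and 3 changed sign. With 1 ChIP library and no read counts, neither replicate error nor depth could be given.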
